A study of Mus musculus with 17 samples.

Results

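Counts of 10 genes of the BCL2 family were followed in bulk RNA-seq libraries of mouse ovarian follicles that had met an inhibitor of the EGFR kinase, or had not. The members were taken by symbol from the deposited table, and all 10 were found among its 25198 genes. They were the survival genes Bcl2, Bcl2l1 and Mcl1, the pore-forming effector Bax, and the BH3-only death genes Bcl2l11, Bad, Bid, Bmf, Bbc3 and Pmaip1.

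Proteins of the BCL2 family decide whether the outer mitochondrial membrane stays intact. Survival members hold the effectors and the BH3-only proteins in check, BH3-only proteins carry stress and growth factor signals to them, and an activated effector opens pores that release cytochrome c and start the caspases. In the ovary the family is known for its part in atresia, the loss of follicles through apoptosis of granulosa cells, and EGFR signals through ERK and AKT are known to restrain the BH3-only proteins BIM (the product of Bcl2l11) and BAD.

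The follicles came from CD1 mice aged 16 days, were grown for 8 days in eIVFG, an encapsulated culture of single follicles, and had reached the antral stage. Each sample pooled 3 follicles. Smart-Seq2, which copies whole transcripts without marking strand and without molecular identifiers, gave the libraries. The Tyrphostin group received 10 µM AG1478, a tyrosine kinase inhibitor, in DMSO together with hCG, the hormone that triggers ovulation, for 4 h. The treatment text is the same on every sample, so whether the Control follicles received hCG and DMSO is not stated, and the series title spells the compound AG4178 where the sample labels write AG1478. Batch 1 held 6 Control (1 to 6) and 3 Tyrphostin libraries (1 to 3), and batch 2 held 5 Control (7 to 11) and 3 Tyrphostin libraries (4 to 6), 17 in all. What a batch was is not stated, nor whether libraries came from separate animals or cultures, so p-values measure the spread between these samples, which may be technical. The follicle is a mixture of cells, and in bulk RNA fewer cells of a type and less RNA per cell cannot be told apart.

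Library totals ran from 1820545 counts (Control 6) to 8291024 counts (Control 8), so that 3 counts, the upper limit that a count of 0 allows, were worth 1.65 and 0.362 CPM in these libraries, CPM being counts scaled to the same library total. The granulosa markers Inha and Inhba carried most of the summed granulosa marker level, which was between 72117 and 91030 CPM in Control and between 64687 and 86249 CPM in Tyrphostin libraries, while the marker Amh averaged 0.0193 CPM in Control. The dual-specificity phosphatase gene Dusp6, a feedback target of ERK, is given as a check of the labels. It had the lowest p of 9 ERK feedback genes tested, of which 4 were called, all lower, so it was chosen by its outcome. It fell from 565 ± 131 CPM (SD, n = 11) to 137 ± 43.2 CPM (n = 6), a log2 difference of -2.05 ± 0.22 (SE, edgeR quasi-likelihood test, adjusted p = 1.88e-06), and was below every Control library in 6 of 6 Tyrphostin libraries. Here and below CPM are scaled by TMM, differences are log2 values of Tyrphostin minus Control with batch as a term, and a gene counts as changed at an adjusted p under 0.05 over all genes tested.

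Promoter windows of 9 members, 17 in all, were read from RefSeq (GRCm38.p6), each from 250 bases before to 50 bases after an annotated start. They are shown because the genes of 2 FOXO factors were higher and 4 of 9 ERK feedback genes tested were lower in Tyrphostin libraries. The sequences show which members hold the letters that FOXO, AP-1, CRE-binding, EGR and ETS factors are known to read. Searched on both strands were TGTTTAC (FOXO), TGANTCA (AP-1), TGACGTCA (CRE), GCGNGGGCG (EGR) and CCGGAAGT (ETS). The FOXO letters were in 3.65% of all 32851 windows, the AP-1 letters in 7.81%, the CRE letters in 1.79%, the EGR letters in 5.55% and the ETS letters in 3.89%. Among the members, the FOXO letters were in 1 window of Bcl2l11 and 1 of Bbc3, the EGR letters were in those same windows and in a further window of Bbc3, and the ETS letters were in 1 window of Bcl2l1. No AP-1 or CRE letters were in the 17 windows. The windows with EGR letters were 71% GC for Bcl2l11 and 76% and 74.67% GC for Bbc3, beside a median of 52.67% over all windows. The shares over all windows take no account of base composition. The 3 windows below are the Bcl2l11 window at chr2:128125788-128126087 (plus strand), the Bbc3 window at chr7:16310011-16310310 (plus strand) and the Bcl2l1 window at chr2:152831679-152831978 (minus strand), each written on the strand of its gene with the matches in capitals. In Bcl2l11 the capitals mark the FOXO letters on the reverse strand, with their first base at position -227 from the start, then the EGR letters from position -50. In Bbc3 they mark the FOXO letters from position -167 and the EGR letters on the reverse strand from position -141. In Bcl2l1 they mark the ETS letters, whose first base lies 35 bases past the start. A match describes the letters and does not show that a factor binds.
Bcl2l11: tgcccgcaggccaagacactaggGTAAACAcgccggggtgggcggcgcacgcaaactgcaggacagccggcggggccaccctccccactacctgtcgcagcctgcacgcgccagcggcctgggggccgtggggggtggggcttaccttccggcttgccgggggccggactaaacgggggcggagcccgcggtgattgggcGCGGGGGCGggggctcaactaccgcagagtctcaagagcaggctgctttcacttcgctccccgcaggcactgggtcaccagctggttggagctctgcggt
Bbc3: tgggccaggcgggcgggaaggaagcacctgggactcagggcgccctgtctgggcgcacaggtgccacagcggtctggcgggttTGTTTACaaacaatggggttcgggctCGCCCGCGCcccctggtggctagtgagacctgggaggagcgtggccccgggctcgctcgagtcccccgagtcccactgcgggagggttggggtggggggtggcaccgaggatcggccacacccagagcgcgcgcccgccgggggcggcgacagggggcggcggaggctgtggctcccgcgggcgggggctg
Bcl2l1: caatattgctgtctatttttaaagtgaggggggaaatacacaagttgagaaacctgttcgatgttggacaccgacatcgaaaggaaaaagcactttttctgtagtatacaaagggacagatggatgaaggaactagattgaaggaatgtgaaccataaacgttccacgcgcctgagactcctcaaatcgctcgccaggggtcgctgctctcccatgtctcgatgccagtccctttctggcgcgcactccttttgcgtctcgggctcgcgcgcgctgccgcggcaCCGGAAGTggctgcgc

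No member was called changed between Tyrphostin and Control libraries over both batches. Of the 10 members, 6 had enough counts to be tested (Bcl2l1, Mcl1, Bax, Bcl2l11, Bad and Bid), and 0 of these 6 passed in edgeR, 0 had an unadjusted p under 0.05, and 0 passed in DESeq2 or limma-voom. Over all 9603 genes tested, 10.6% were called, 4.35% higher and 6.25% lower, that is 418 and 600 genes. When libraries were scaled by their totals alone, the median over all genes moved from 0.00 to 0.15 and the split turned to 715 higher and 396 lower. The median difference of the 6 members tested was 0.11, beside 0.00 over all genes. Their 95% intervals all lay within 1 log2 unit of 0 on either side, from -0.81 for Mcl1 at the low end to 0.96 for Bad at the high end. Bcl2l1 was called between batches, 3.30-fold higher in Control follicles of batch 2 than in those of batch 1.

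**Figure D1:**
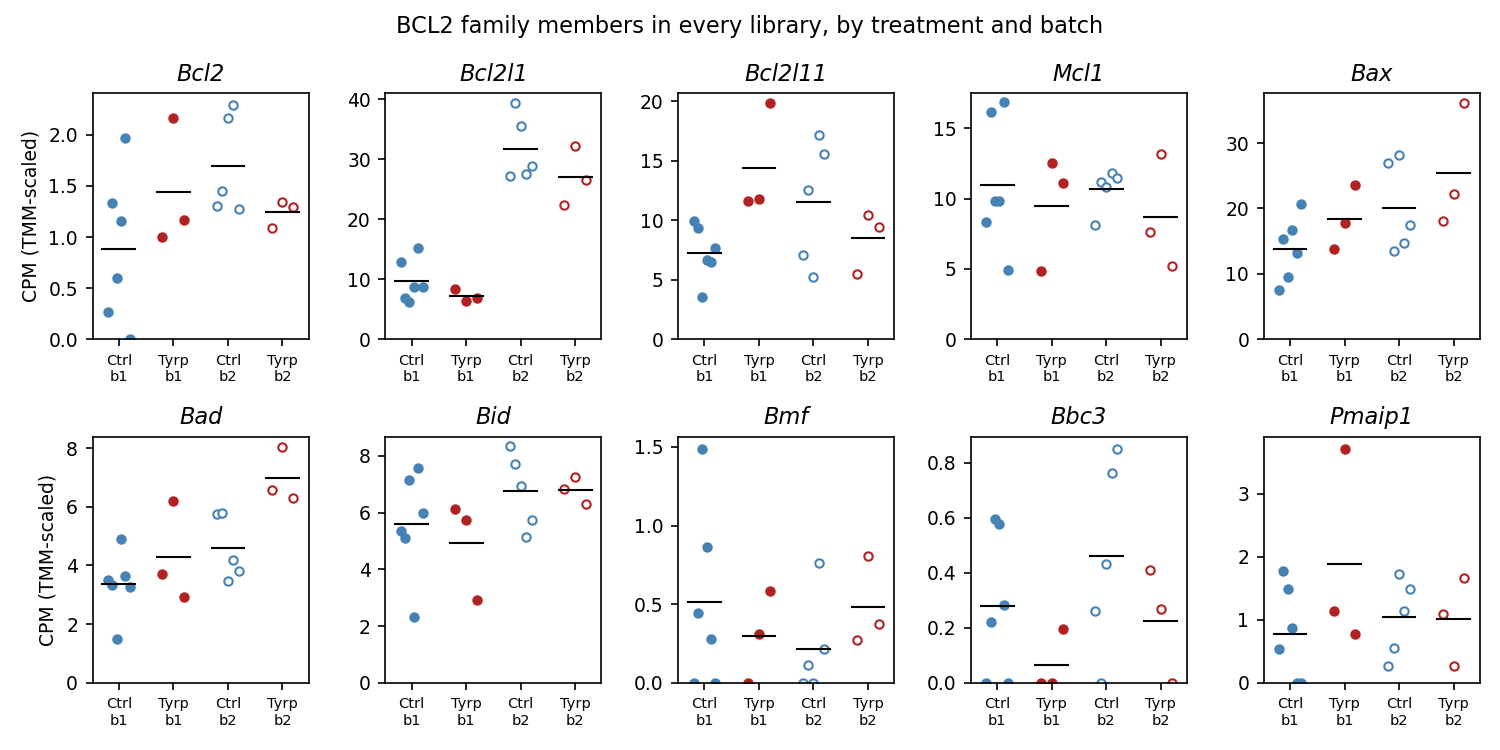
TMM-scaled CPM (vertical axes, separate scales) of each BCL2 family member in every library, by treatment and batch; each point is 1 library and each bar the group mean. Bcl2l1 sat between 22.4 and 39.3 CPM in all libraries of batch 2 and between 6.25 and 15.2 CPM in those of batch 1. For Bcl2l11 the 3 Tyrphostin libraries lay above every Control library in batch 1 and below the Control median in batch 2. Bcl2l11 was not called within either batch in the main edgeR fit. The share of all genes that separated in these ways was not counted.

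Bcl2l1 (chr2:152780668-152831728, minus strand, GRCm38) encodes BCL-XL, a survival protein that binds both effectors and BH3-only proteins. In batch 1 its level was between 6.25 and 15.2 CPM with a median of 8.69 in the 6 Control libraries, and it was 8.43, 6.35 and 6.80 CPM in the Tyrphostin libraries. In batch 2 it was 27.2, 39.3, 35.5, 27.5 and 28.9 CPM in Control and 22.4, 32.2 and 26.5 CPM in Tyrphostin libraries. Treatment groups overlapped in each batch, whereas every library of batch 2 was above every library of batch 1. The treatment difference was -0.33 ± 0.19 (95% interval -0.72 to 0.06, edgeR adjusted p = 0.306). It was -0.43 ± 0.32 within batch 1 and -0.23 ± 0.23 within batch 2, the same sign in both, and the 2 values differed by 0.21 ± 0.38 (interaction, edgeR adjusted p = 1.00).

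The difference between batches in Bcl2l1 was larger than the spread between replicates. Among Control libraries the level was 9.76 ± 3.52 CPM (SD, n = 6) in batch 1 and 31.7 ± 5.42 CPM (n = 5) in batch 2, a difference of 1.72 ± 0.24, or 3.30-fold (95% interval of the log2 value 1.21 to 2.23, edgeR adjusted p = 0.000410). All 5 Control libraries of batch 2 were above all 6 of batch 1, and the share of all genes that separated in this way was not counted. By their names the Control libraries of batch 1 belong to sets 1 and 2, and those of batch 2 to sets 4, 5 and 6. The test counted libraries and took no account of sets, whose meaning is not stated, so its p may be too small. In this comparison 4 members were tested and Bcl2l1 was the 1 called, against 14.0% of the 6680 genes tested, 7.26% called higher. Among Tyrphostin libraries, which were not part of that test, Bcl2l1 averaged 7.19 ± 1.10 CPM in batch 1 and 27.0 ± 4.92 CPM in batch 2 (n = 3 each), a difference of 1.92 ± 0.29, or 3.79-fold (edgeR adjusted p = 0.00449). There 6 members were tested and 1 was called, beside 4.44% of 8189 genes called and 2.31% called higher. This second batch comparison was added after the values had been seen.

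The other members moved less between batches. In Control follicles Bcl2l11 differed by 0.73 ± 0.32 (batch 2 minus batch 1, edgeR adjusted p = 0.144), Bax by 0.56 ± 0.28 (adjusted p = 0.193) and Mcl1 by -0.03 ± 0.28 (adjusted p = 0.954). Marker means of the batches were taken over Control and Tyrphostin libraries together. Most markers of oocyte, theca and stroma, and immune cells stood higher in batch 2, while endothelial markers were divided. The batch 2 mean was the higher one for 10 of 10 oocyte and 7 of 9 theca and stroma markers. The same held for 7 of 7 immune, 3 of 6 endothelial and 7 of 11 granulosa markers. Batch 2 means include the oocyte sum of Tyrphostin 6 (320 CPM). They also include the theca and stroma sum (3082 CPM) and immune sum (873 CPM) of Tyrphostin 5. In Control libraries the summed theca and stroma level ran from 273 to 774 CPM in batch 1 and from 472 to 2157 CPM in batch 2, the immune sum from 18.6 to 63.6 and from 54.4 to 470 CPM, and the oocyte sum from 23.6 to 72.0 and from 30.7 to 111 CPM. The endothelial sum went the other way, from 12.4 to 89.4 CPM in batch 1 and from 8.50 to 22.5 CPM in batch 2. None of the markers was at 0 in all libraries. Their part in the Bcl2l1 difference was not tested.

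Mcl1 (chr3:95658788-95663176, plus strand), a survival gene whose protein is short-lived, was between 4.91 and 16.9 CPM with a median of 9.82 in the Control libraries of batch 1 and at 8.10, 11.2, 10.8, 11.8 and 11.5 CPM in those of batch 2. The Tyrphostin libraries held 4.86, 12.5 and 11.1 CPM in batch 1 and 7.65, 13.2 and 5.19 CPM in batch 2. In batch 1 Tyrphostin 1 was just below every Control library and the other two lay within the Control range. In batch 2 Tyrphostin 5 was above and Tyrphostin 4 and Tyrphostin 6 were below every Control library. The difference was -0.28 ± 0.25 (95% interval -0.81 to 0.24, edgeR adjusted p = 0.556), with -0.24 within batch 1 and -0.32 within batch 2.

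Bax (chr7:45461697-45466898, minus strand) encodes the effector that opens the mitochondrial membrane. In batch 1 Control libraries held between 7.51 and 20.7 CPM with a median of 14.3, and Tyrphostin libraries 13.9, 17.8 and 23.5 CPM. In batch 2 Control libraries held 26.9, 13.5, 28.1, 14.7 and 17.4 CPM, and Tyrphostin libraries 18.0, 22.3 and 36.1 CPM. Tyrphostin 3 and Tyrphostin 6 were above every Control library of their batch, and the groups otherwise overlapped. The difference was 0.39 ± 0.22 (95% interval -0.07 to 0.85, edgeR adjusted p = 0.299), 0.43 within batch 1 and 0.37 within batch 2. Bax shares 192 exon bases (12.2% of its exon length) with Gm45808 on the same strand, so its count is uncertain to that extent.

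The median ratio of Bax counts to Bcl2l1 counts was lower in batch 2 than in batch 1 in both treatment groups. The number of Bax counts per Bcl2l1 count had a median of 1.73 (range 0.583 to 2.38) in Control and 2.80 (1.64 to 3.46) in Tyrphostin libraries of batch 1. In batch 2 the medians were 0.603 (0.344 to 0.990) in Control and 0.805 (0.692 to 1.36) in Tyrphostin libraries. The ranges of the treatment groups overlapped in each batch, and the ratio is given as a description only. Counts were not scaled by exon length here, which is 1576 bases for Bax and 4586 bases for Bcl2l1. A ratio under 1 thus does not mean less Bax than Bcl2l1 RNA. Per kilobase of exon, Bax was above Bcl2l1 in 11 of 11 Control and 6 of 6 Tyrphostin libraries. Bcl2l1 is the divisor, so its difference between batches enters the ratio.

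Bcl2l11 (chr2:128126038-128162547, plus strand) encodes BIM, a BH3-only protein that FOXO factors are known to induce and ERK to mark for degradation. Its promoter window printed above holds the FOXO letters. In batch 1 the 6 Control libraries held between 3.57 and 9.93 CPM with a median of 7.14, and the Tyrphostin libraries held 11.6, 11.8 and 19.8 CPM. In batch 2 the Control libraries held 7.06, 12.5, 5.19, 17.2 and 15.5 CPM and the Tyrphostin libraries 5.46, 10.5 and 9.45 CPM. The groups of batch 1 did not overlap, 3 of 3 Tyrphostin libraries lying above every Control library, whereas in batch 2 all 3 Tyrphostin libraries were below the Control median. How many of all genes separated in this way in batch 1 was not counted.

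Pooled over the batches, Bcl2l11 differed by 0.31 ± 0.30 (95% interval -0.31 to 0.92, edgeR adjusted p = 0.592). Within batch 1 the difference was 0.98 ± 0.31 (0.32 to 1.64), with an unadjusted p of 0.00570 and an adjusted p of 0.0690 in edgeR, so that 0 of the 6 members tested were called there, beside 6.73% of 9423 genes; 1 member, Bcl2l11, had an unadjusted p under 0.05. It passed in that batch with scaling by total counts (edgeR adjusted p = 0.0394), in DESeq2 (0.0486) and with no filter on low counts (edgeR, 0.0292), but not in limma-voom (0 members). Without Tyrphostin 3 the batch 1 difference was 0.69 and, over the libraries of that batch left out in turn, the edgeR adjusted p ran from 0.0552 to 0.280. Within batch 2 the difference was -0.48 ± 0.41 (edgeR adjusted p = 0.767).

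Whether the treatment difference itself differed between batches was tested as an interaction. For Bcl2l11 it was -1.46 ± 0.52 (batch 2 minus batch 1, 95% interval -2.53 to -0.39), with an unadjusted p of 0.00989 and an adjusted p of 1.00 in edgeR. Over the alternatives the adjusted p ran from 0.229 to 1.00. In this test 0 of 9603 genes (0%) were called in edgeR, 0 in DESeq2, 0 in limma-voom and 79 when no filter on low counts was used, and 342 genes had an unadjusted p under 0.05. Of those, 60, Bcl2l11 included, had a p as low as its own, and Bcl2l11 was the 1 member of 6 under 0.05. The opposite signs of Bcl2l11 therefore did not pass as a difference between batches.

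**Figure D2:**
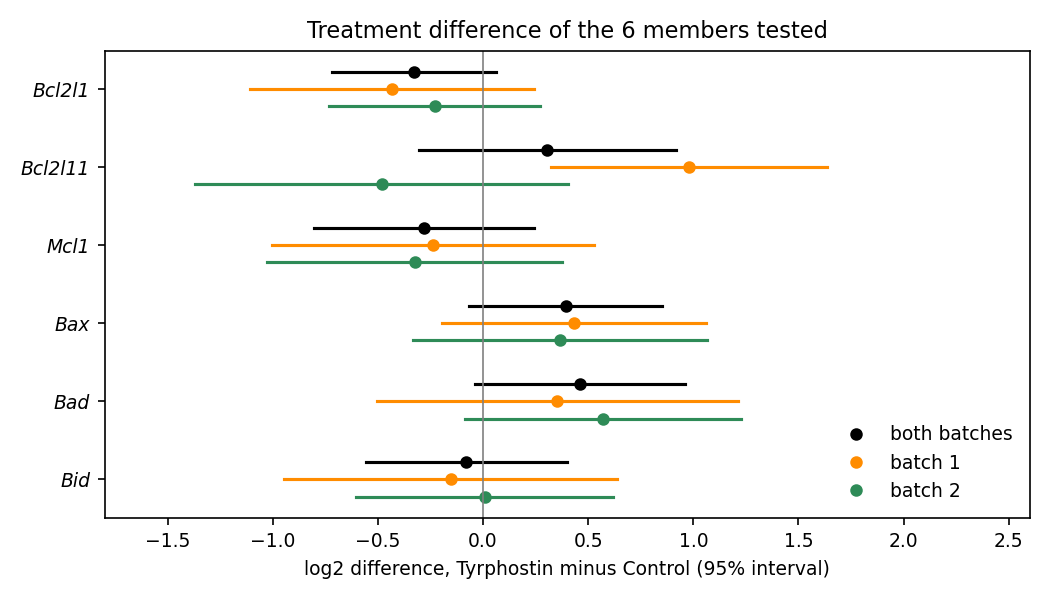
Log2 difference (Tyrphostin minus Control, horizontal axis) of the 6 BCL2 family members tested, over both batches and within each batch; points are edgeR estimates and lines 95% intervals. Only the Bcl2l11 interval of batch 1 (0.32 to 1.64) lies clear of 0.

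Bad (chr19:6941861-6951899, plus strand) encodes a BH3-only protein whose phosphorylation by growth factor pathways is known to silence it. Its level was between 1.49 and 4.91 CPM with a median of 3.41 in the Control libraries of batch 1 and 3.72, 6.19 and 2.91 CPM in the Tyrphostin libraries. In batch 2 it was 5.75, 5.80, 3.46, 4.20 and 3.83 CPM in Control and 6.56, 8.05 and 6.30 CPM in Tyrphostin libraries. All 3 Tyrphostin libraries of batch 2 were above every Control library of that batch, and 4 of 6 were above every Control library of either batch. The share of all genes separating in this way was not counted here either. The difference was 0.46 ± 0.24 (95% interval -0.04 to 0.96, edgeR adjusted p = 0.252). It was 0.35 ± 0.41 within batch 1 and 0.57 ± 0.30 within batch 2 (adjusted p = 0.549), where 0 of 6 members were called in edgeR, DESeq2 or limma-voom, 0 had an unadjusted p under 0.05, and 0.621% of 9830 genes were called. Bad shares 524 exon bases (20.5%) with Gpr137 on the opposite strand, and without strand the reads of the pair cannot be told apart there.

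Bid (chr6:120891930-120916853, minus strand) encodes the BH3-only protein that links death receptors to mitochondria. Control libraries held between 2.31 and 7.59 CPM with a median of 5.68 in batch 1, and 8.36, 7.70, 6.92, 5.15 and 5.74 CPM in batch 2. Tyrphostin libraries held 6.14, 5.73 and 2.91 CPM in batch 1 and 6.83, 7.25 and 6.30 CPM in batch 2. The groups overlapped in both batches, and Tyrphostin 3 was the lowest of the Tyrphostin libraries, above the lowest Control library of its batch. The difference was -0.08 ± 0.23 (95% interval -0.56 to 0.40, edgeR adjusted p = 0.886), and its sign turned with scaling by total counts (0.06) and without Tyrphostin 3 (0.05). Bid shares 628 exon bases (17.7%) with Bcl2l13 on the opposite strand.

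The other 4 members had too few counts for the fit across genes and were compared 1 by 1. Bcl2 (chr1:106538178-106714274, minus strand), the founding survival gene of the family, gave between 0 and 13 counts in a Control library and between 5 and 14 in a Tyrphostin library. Its level was 1.25 ± 0.738 CPM in Control (SD, n = 11) and 1.34 ± 0.423 CPM in Tyrphostin libraries (n = 6), and only Control 6, the shallowest library, was at 0. The difference in mean log2 CPM was 0.18 (exact permutation test within batches, two-sided p = 0.609). Bcl2 shares 558 exon bases (6.1%) with D630008O14Rik on the opposite strand.

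Bmf (chr2:118528757-118549687, minus strand), a BH3-only gene linked to detachment from the matrix, gave at most 5 counts in a library, 17 over all Control and 12 over all Tyrphostin libraries, and 4 Control and 1 Tyrphostin libraries were at 0. Its difference in mean log2 CPM was 0.16 (exact permutation p = 0.649). Bbc3 (chr7:16308393-16318205, plus strand) encodes PUMA, a BH3-only protein known as a target of p53 and FOXO3. It gave 16 counts over the 11 Control and 5 over the 6 Tyrphostin libraries, at most 4 in a library, and 3 libraries of each group were at 0. Its difference was -0.43 (exact permutation p = 0.143). With each library left out in turn, the same exact test gave p from 0.0415 (without Control 8) to 0.345. Only the fit without Control 8 was under 0.05.

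Pmaip1 encodes NOXA, a BH3-only protein that targets MCL1. It gave 41 counts over all Control libraries, at most 8 in one, and 54 over all Tyrphostin libraries, of which 24 were in Tyrphostin 2. The level was 0.895 ± 0.669 CPM in Control (n = 11) and 1.44 ± 1.20 CPM in Tyrphostin libraries (n = 6). The difference in mean log2 CPM was 0.48 (exact permutation p = 0.308). These 4 p-values are unadjusted, and over the 4704 arrangements of labels within batches the smallest belonged to Bbc3. With no filter on low counts the edgeR adjusted p ran from 0.546 for Bbc3 to 0.986 for Bmf.

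Levels were compared between members as CPM per kilobase of exon, with exon lengths from GENCODE M21. In Control libraries the mean was 10.6 for Bax, 4.30 for Bcl2l1, 3.17 for Mcl1, 1.73 for Bid, 1.53 for Bad and 1.14 for Bcl2l11, then 0.328 for Pmaip1, 0.170 for Bbc3, 0.137 for Bcl2 and 0.0721 for Bmf. Bax was above Bcl2l1 in 11 of 11 Control and 6 of 6 Tyrphostin libraries, and Bcl2l11 was above Pmaip1 in 10 of 11 and 6 of 6. Other neighbours in this order changed places. Bcl2l1 was above Mcl1 in 7 of 11 Control and 4 of 6 Tyrphostin libraries, Bid above Bad in 8 of 11 and 1 of 6, and Bbc3 above Bcl2 in 4 of 11 and 1 of 6. Among the survival genes the per-length level of Bcl2 was thus the lowest, and Mcl1 and Bcl2l1 did not keep a fixed order.

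**Figure D3:**
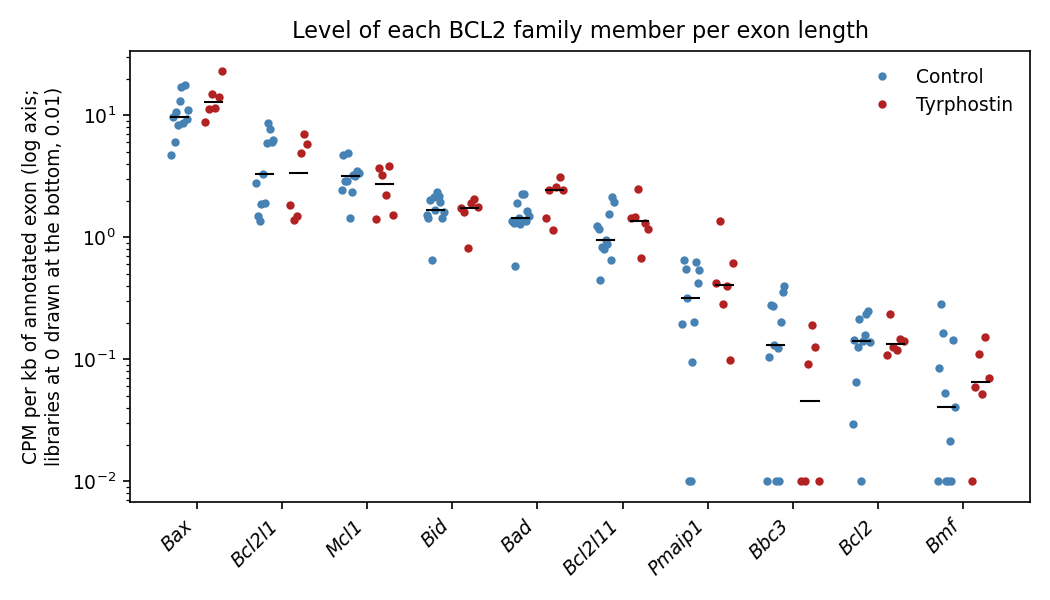
CPM per kilobase of exon (log axis) of the 10 BCL2 family members in Control and Tyrphostin libraries; each point is 1 library, each line a group median, and libraries at 0 are drawn at the bottom. In Control libraries Bax has the highest median (9.70) and Bmf the lowest (0.0405), and in Tyrphostin libraries Bbc3 has the lowest (0.0457).

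No gene was called in the lists of the rest of the pathway. Of 13 further BCL2 family genes 4 were tested and 0 called, of 14 apoptosome and caspase genes 11 were tested and 0 called, of 5 inhibitors of apoptosis 5 were tested and 0 called, and of 10 death receptor genes 8 were tested and 0 called, in edgeR, beside the 10.6% of all genes given above. DESeq2 and limma-voom also called 0 in each of these lists, and 0, 2, 3 and 1 genes of the lists had an unadjusted p under 0.05. Their median differences were 0.34, -0.28, 0.52 and -0.30, beside 0.00 over all genes. The following were chosen after their values were seen. Bok, an effector relative of Bax, was at 28.6 ± 9.32 CPM in Control and 38.4 ± 15.1 CPM in Tyrphostin libraries, a difference of 0.40 ± 0.22 (edgeR adjusted p = 0.273). Xiap, which inhibits caspases, was at 14.4 ± 5.99 and 20.6 ± 10.8 CPM (0.52 ± 0.20, adjusted p = 0.111 in edgeR). Tnfrsf1a, a receptor of tumour necrosis factor, was at 45.5 ± 11.6 and 31.1 ± 9.04 CPM (-0.55 ± 0.19, adjusted p = 0.0718 in edgeR).

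Among 25 genes known to regulate BCL2 family genes or to bind and modify their proteins, 22 were tested, 3 rose and 3 fell, beside 4.35% of all genes called higher and 6.25% called lower, and the median difference was -0.13. With scaling by total counts 12 of the 22 had a positive sign instead of 4, while the 6 called genes kept theirs under each alternative. The called genes were the transcription factors Foxo1, Foxo3 and Myc, the mitochondrial channel Vdac3, the adaptor Ywhaz and the kinase Pim1.

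Foxo1 and Foxo3 encode forkhead factors known to induce Bcl2l11 and Bbc3 when AKT is inactive. Foxo1 was between 2.42 and 9.24 CPM with a median of 3.82 in the 11 Control libraries and between 8.20 and 19.2 CPM with a median of 12.4 in the Tyrphostin libraries, 5 of 6 above every Control library. It rose by 1.30 ± 0.27 (edgeR adjusted p = 0.00266) over both batches and by 1.77 ± 0.35 within batch 1 (edgeR adjusted p = 0.00404). Within batch 2 the Foxo1 difference was 0.81 ± 0.37 and did not pass (edgeR adjusted p = 0.472). Foxo3 was between 20.8 and 78.9 CPM with a median of 35.2 in Control and between 53.0 and 84.9 CPM with a median of 71.4 in Tyrphostin libraries. Its groups overlapped through Control 3, the one Control library at 78.9 CPM, and 2 of 6 Tyrphostin libraries were above every Control library. Foxo3 rose by 1.01 ± 0.19 (edgeR adjusted p = 0.00118) over both batches. Within batch 1 the Foxo3 difference was 0.93 ± 0.27 (edgeR adjusted p = 0.0416), a call that was lost in 8 of 9 fits without 1 library of that batch, and within batch 2 it was 1.12 ± 0.26 and did not pass (edgeR adjusted p = 0.0853), though Foxo3 passed there in DESeq2 (0.0144) and without Control 7 (edgeR, 0.00600).

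Beside these rises, neither of the members whose windows hold the FOXO letters was called over both batches. In batch 1 the difference was 0.98 for Bcl2l11, 1.77 for Foxo1 and 0.93 for Foxo3, and in batch 2 it was -0.48 for Bcl2l11, 0.81 for Foxo1 and 1.12 for Foxo3. Whether the FOXO genes had a part in the Bcl2l11 values was not tested. The Foxo1 differences of the batches were not shown to differ (interaction -0.96 ± 0.53, edgeR adjusted p = 1.00). Bbc3 was too low for the fit.

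Myc, a growth regulator known to prime cells for apoptosis, was between 51.9 and 237 CPM with a median of 106 in Control and between 32.3 and 67.8 CPM with a median of 46.3 in Tyrphostin libraries. It fell by 1.32 ± 0.28 on the log2 scale (edgeR adjusted p = 0.00323). Every Control library was above 5 of the 6 Tyrphostin libraries. Ywhaz, whose product holds phosphorylated BAD in the cytosol, fell from 1925 ± 596 to 1103 ± 355 CPM, a difference of -0.78 ± 0.19 (edgeR adjusted p = 0.00809), with 4 of 6 libraries below every Control library. Vdac3, a channel of the outer mitochondrial membrane, rose from 24.9 ± 4.33 to 40.2 ± 10.7 CPM, a difference of 0.68 ± 0.15 (edgeR adjusted p = 0.00446), with 4 of 6 libraries above every Control library. Pim1, a kinase that phosphorylates BAD, fell from 11.7 ± 5.24 to 6.06 ± 1.98 CPM, a difference of -0.89 ± 0.28 (edgeR adjusted p = 0.0454). The Pim1 call was lost with scaling by total counts (edgeR adjusted p = 0.101), without a batch term (0.0644) and with Control libraries summed by set (0.115). It was also lost without Control 6, Control 7 and Tyrphostin 5 (0.0534), and in 10 of the 17 fits with 1 library left out. In those fits the edgeR adjusted p reached 0.131 without Tyrphostin 2. Within batch 1 alone Myc and Pim1 passed (edgeR adjusted p = 0.00426 and 0.0210), while Ywhaz and Vdac3 did not (0.107 and 0.0538). Within batch 2 none of these genes passed. The edgeR adjusted p there was 0.354 for Myc, 0.788 for Pim1, 0.268 for Ywhaz and 0.330 for Vdac3. Each kept its sign in both batches.

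**Figure D4:**
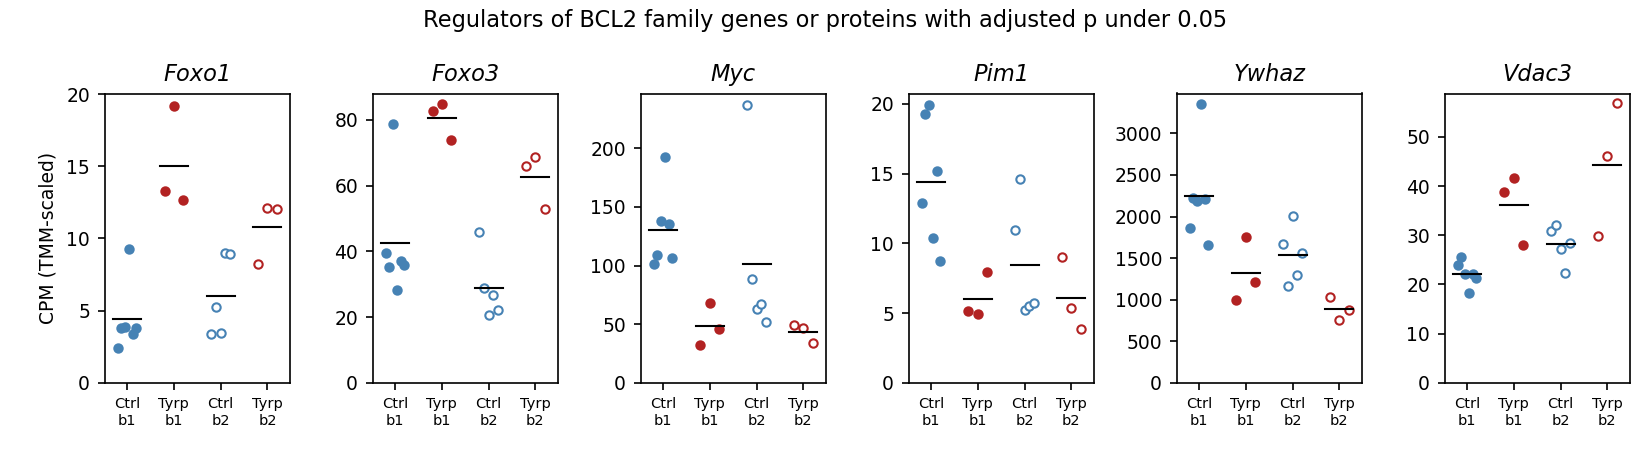
TMM-scaled CPM (vertical axes, separate scales) of the 6 regulator genes called in the treatment comparison, in every library by treatment and batch; each point is 1 library and each bar the group mean. Foxo1, Foxo3 and Vdac3 have higher and Myc, Ywhaz and Pim1 lower means in Tyrphostin libraries.

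Of the cell type markers, 4 of 9 granulosa markers tested rose (Fshr, Cyp19a1, Nr5a2 and Hsd17b1), 1 of 9 theca and stroma markers fell (Hhip, -1.13) and 0 of 9 oocyte, 0 of 2 endothelial and 0 of 2 immune markers were called in edgeR, with 1, 1 and 0 at an unadjusted p under 0.05; DESeq2 called 1 oocyte marker and limma-voom 0. Within batch 2 the summed oocyte level of Tyrphostin 6 was 320 CPM and the theca and stroma sum of Tyrphostin 5 was 3082 CPM, the highest of all libraries. Tyrphostin 6 also held the highest Bax level. The part of these cells in the member values was not tested.

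The genes whose pattern was most like a member were sought among 6332 or 6333 genes, as Pearson's r of log2 CPM over the 17 libraries after batch means were removed, and r is a description only, since the points share library depth and treatment. For Bad the nearest were Cyp1b1 (r = 0.82), Park7 (0.81) and Slc25a3 (0.79). For Bax they were Tm9sf4 (0.86), Slc25a39 (0.81) and Mars (0.80). For Bcl2l1 they were Adamts4 (0.74), Golm1 (0.73) and Babam1 (0.73).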

How the data were processed

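Bulk RNA-seq libraries of 17 follicle samples were analysed. The deposited table gives raw counts for 25198 gene symbols, of which 3576 were at 0 in every library, and 0 of its columns belonged to other series. STAR, HTSeq and GRCm38 are named in the submitters' processing notes, without roles or versions. The annotation, the strand setting and any filter on genes are not given in the sources used here. Columns were matched to samples by the names that the labels give.

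Tests used edgeR 4.0.16 (R 4.3.3), with filterByExpr (minimum count 10), TMM scaling, robust quasi-likelihood fits, and Benjamini-Hochberg adjustment over all genes tested with a threshold of 0.05. Standard errors were taken as the absolute log2 difference over the root of the F statistic. The treatment difference came from all libraries, batch being a term, then from each batch alone, as an interaction, and between batches in Control libraries. Log2 CPM used a prior count of 2. Members under the filter were compared with an exact two-sided permutation test within batches. The test script was checked on simulated counts. In each of the 31 pairs of libraries that share group and batch, counts differed beyond sampling noise (chi-square 11.8 to 84.1 per degree of freedom), so none was counted as a copy.

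The members and lists were chosen with earlier results of these data known. All 10 members are named, as are list genes with an adjusted p under 0.05 (at most 6 a list) and the 3 genes most like each of the 3 members of lowest p. Gene positions and exon lengths came from GENCODE M21 (GRCm38) and promoter windows from RefSeq (GRCm38.p6). Alternatives were DESeq2 1.42.0, limma-voom (limma 3.58.1), scaling by RLE or by total counts, no filter, a minimum average log2 CPM of 3, no batch term, a depth covariate, Control libraries summed by the 5 sets in their library names, a block on the replicate number, and leaving out each library. Added after the data were seen were leaving out Control 6, Control 7 and Tyrphostin 5 together, and batches compared among Tyrphostin libraries. Limits from a count of 0 cover counting error only: without molecular identifiers, PCR copies of 1 molecule are counted apart.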

Additional observations from a re-analysis of the deposited data

Results flagged for a closer look

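Single libraries stood apart from the rest of their group and batch in 4 of the 30 groups searched, each a member in 1 treatment group of 1 batch or over both batches. For normally distributed values chance gives about 1 in 20, or 1.5 of 30. Low counts and groups that span both batches need not meet that condition, so 4 is not shown to exceed chance. Bcl2 was at 2.17 CPM in Tyrphostin 2, on 14 counts, against 1.00 to 1.34 CPM in the other Tyrphostin libraries. Mcl1 was at 8.10 CPM in Control 7, on 31 counts, against 10.8 to 11.8 CPM in the other Control libraries of batch 2. Bid was at 2.91 CPM in Tyrphostin 3, on 15 counts, against 5.73 to 7.25 CPM in the other Tyrphostin libraries. Bmf was at 0.764 CPM in Control 10, on 4 counts, against 0 to 0.213 CPM in the other Control libraries of batch 2.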

How the results depend on the processing

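The number of members called in the treatment comparison was 0 in every alternative and with each library left out. The number of genes called over both batches, 1018, was 619 without a batch term and 678 with the log10 total count as a covariate, and ran from 708 without Tyrphostin 1 to 1314 without Control 7. Within batch 1 the number of members called was 1 (Bcl2l11) instead of 0 with total-count scaling, in DESeq2 and with no filter, and the cause was not tested. Within batch 2 the 61 genes called became 303 in DESeq2, 222 with no filter, 11 without Tyrphostin 6 and 221 without Control 7. Bcl2l1 stayed called between batches in each of the alternatives run for that comparison and without each Control library, from 1.62 to 1.90 in the latter. Summing Control libraries by set was run for the treatment comparison only. The Bcl2l11 treatment difference ran from 0.07 without Tyrphostin 3 to 0.51 without Tyrphostin 4.

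Whether samples were paired is not settled. Same-numbered libraries had deviations correlated at 0.03 to 0.32, and 1 of 6 numbers matched its own number best. Replicate numbers 4 to 6, however, lie in batch 1 for Control and in batch 2 for Tyrphostin libraries, so these could not show a pairing within a batch. Set numbers in the Control library names were not compared with the Tyrphostin numbers. With the replicate number as a block, which has the same limit, the genes called were 636. The edgeR adjusted p was then 0.113 for Foxo3, 0.114 for Ywhaz and 0.165 for Vdac3. Depth limits Bcl2, Bmf, Bbc3 and Pmaip1 most: their largest count in a library was 24.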

Other observations

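Bcl2l10, a survival gene of the family known for its expression in oocytes, was chosen after its values were seen. It ran from 0.865 to 16.99 CPM in Control and from 5.29 to 12.0 CPM in Tyrphostin libraries, a difference of 0.40 ± 0.36 (edgeR adjusted p = 0.547). Its lowest value was in Control 9, where the summed oocyte markers were at 30.7 CPM, and its highest in Control 7, where they were at 111 CPM. Other libraries did not follow that order: in Control 6 Bcl2l10 was at 1.64 CPM beside an oocyte sum of 67.6 CPM, and in Tyrphostin 6 it was at 12.0 CPM beside 320 CPM.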
